A study of Rattus norvegicus with 60 samples.

Results

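Endothelial cells line every blood and lymphatic vessel of the lung, and 42 genes known from these cells were followed after inhalation of crystalline silica. The list was drawn from general knowledge of endothelial biology, but with earlier results of these data known. It comprises 24 genes of endothelial cells in general, 7 linked to capillaries, 4 to large vessels, 3 to lymphatic vessels and 4 adhesion molecules that capture leukocytes. Of the 42 genes, 38 had a row in the deposited table, and 35 passed the detection filter, out of 13918 genes tested in all. Pecam1, Eng, Kdr and Flt4 had no matched row and were not analysed here. Robo4, S1pr1 and Prox1 were detected on 0 of 60 lungs, and, not being above background, were not tested.

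RNA from whole lungs of 60 male rats of the strain CDF Fisher 344, approximately 3 months old, was hybridised to Illumina bead arrays with 1 array per rat. The silica groups breathed air that carried crystalline silica, a mineral dust of mines and quarries that scars lung tissue, at a concentration of 15 mg/m3, during 6 hours daily over 5 days. The control rats had breathed filtered air over the same days. Different rats were killed after 1 week, 2 weeks, 4 weeks, 8 weeks and 16 weeks without further exposure. Each of these weeks had 8 silica rats and its own 4 control rats. The arrays detected 11225 to 12594 rows of the deposited table each (median 12082.5). The number of arrays, above all the 4 air arrays a week, limits the precision. All 10 alveolar type I and all 8 alveolar type II marker genes listed passed the detection filter. Among the 35 endothelial genes tested, 33 were detected on every lung, Sele on 59 lungs and Erg on 53.

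In the lung a dense net of capillaries lies against the alveolar epithelium, and rodent capillaries hold a general cell type and a broad gas-exchange cell type, which mouse studies separate by Aplnr and Gpihbp1 against Car4 and Ednrb. Endothelial identity is kept by receptor kinases such as Tie1 and Tek, by receptors of the bone morphogenetic protein family such as Acvrl1 and Bmpr2, and by transcription factors of the Ets, Sox and Klf families. Inflamed vessels elsewhere in the body display selectins and the adhesion molecules Icam1 and Vcam1, which slow and hold passing leukocytes.

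Of the 35 endothelial genes tested, 26 were lower in silica lungs in the mean over the 5 weeks, where 20.6% of all genes tested were. At 16 weeks 19 were called lower, more than in any earlier week, and at 1 week 3 were. Of all genes tested, 12.2% were called lower at 16 weeks and 1.14% at 1 week. Differences are given as silica minus air on the log2 scale of normalised intensity, with the standard error (SE) of limma's fit for 8 silica and 4 air rats. A gene was called at a Benjamini-Hochberg adjusted p under 0.05 over all 13918 genes. In whole-lung RNA, fewer endothelial cells, less RNA of a gene per cell and a larger share of RNA from other cells cannot be told apart.

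At 1 week 3 of the 35 genes were called, all of them lower, where 1.14% of all genes tested were called lower and 2.68% higher. At 2 weeks 12 members were lower and 1 was higher, against 4.61% of all genes called lower and 4.79% called higher. At 4 weeks 7 members were lower and none was higher, with 3.76% and 2.86% of all genes called in these directions. At 8 weeks 12 members were lower and none was higher, with 4.15% of all genes lower and 4.76% higher. At 16 weeks 19 members were lower and none was higher, and 12.2% of all genes were lower and 10.5% higher. In every week the share of members called lower was thus above the share of all genes called lower. Since the list was chosen with earlier results of these data known, this comparison is not an independent test.

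The median difference of the 35 genes was -0.16 at 1 week, -0.13 at 2 weeks, -0.17 at 4 weeks, -0.19 at 8 weeks and -0.33 at 16 weeks. The median over all genes tested stayed between -0.02 and -0.01 in those weeks. In the mean over the 5 weeks 26 members were lower and none was higher, where 20.6% of all genes tested were lower and 14.6% higher. Of the 35 genes, 26 were called lower in at least 1 single week and 22 had a negative difference in all 5 weeks. The most negative difference fell at 16 weeks for 20 of the 35. These counts were not made for all genes, whose share called lower was also largest at 16 weeks (12.2%). Most of the single differences were of modest size, and the lowest weekly value of any member was -0.63 for Gpihbp1 at 2 weeks.

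Averaged over the 35 genes, the log2 level lay between 10.10 and 10.24 in the 4 air lungs at 16 weeks and between 9.83 and 9.99 in the 8 silica lungs. The groups did not overlap in this mean at 2, 4, 8 or 16 weeks. At 1 week they did, with 10.15 to 10.25 in air lungs and 10.00 to 10.18 in silica lungs. These means describe the genes together and were given no test.

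**Figure D1:**
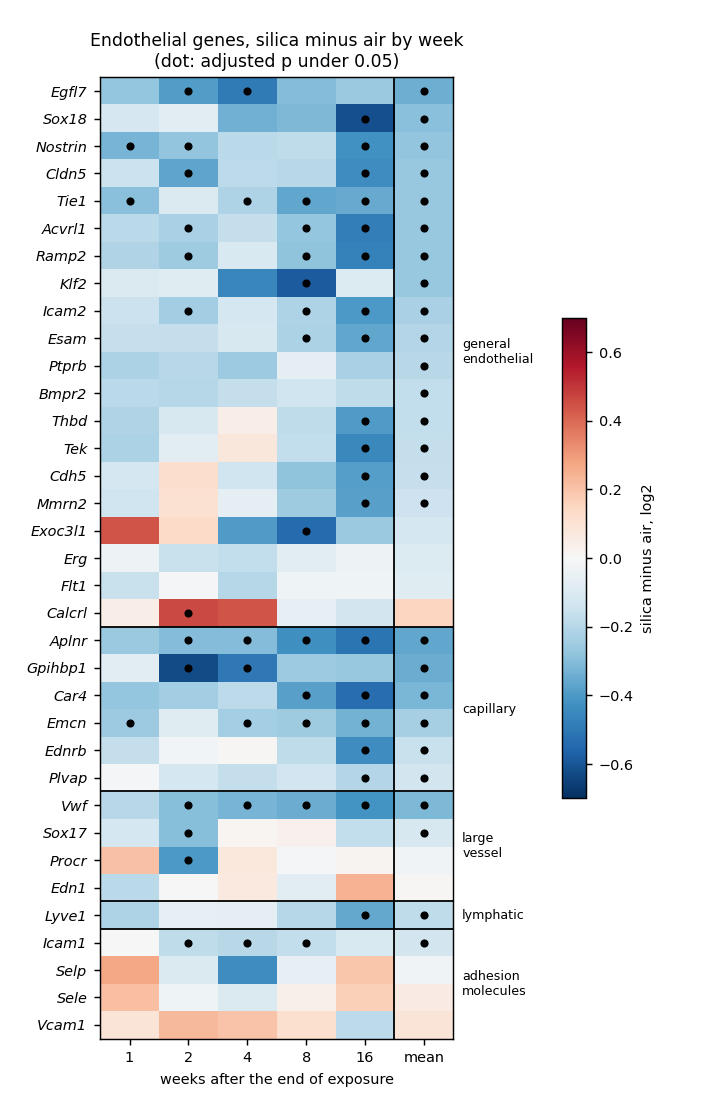
Difference between silica and air lungs (log2, colour scale) for the 35 endothelial genes tested, in rows by role, at each week and in the mean over weeks, in columns. A black dot marks an adjusted p under 0.05 over all genes tested, and the dots are most numerous at 16 weeks, with 19 of 35 genes, all in blue for lower in silica lungs.

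How firmly a single week is known depended on single rats. Without air replicate 3 at 2 weeks the count of called members fell from 13 to 3, and without air replicate 4 it was 7. At 4 weeks the count was 1 in place of 7 without air replicate 3 and also without air replicate 4. Without silica replicate 3 at 4 weeks, an array whose signals had been displaced in the deposited table and were moved back, it was 5. At 1 week it was 1 in place of 3 without air replicate 3 or air replicate 4 and 7 without silica replicate 4, and at 8 weeks it was 7 in place of 12 without air replicate 3. The calls lost without air replicate 3 at 2 weeks were those of Acvrl1, Calcrl, Ramp2, Icam2, Egfl7, Nostrin, Aplnr, Gpihbp1, Vwf and Icam1, so that Cldn5, Sox17 and Procr were left. At 4 weeks Tie1, Aplnr, Gpihbp1, Emcn, Vwf and Icam1 were each lost without air replicate 3 and also without air replicate 4, and Egfl7 alone kept its call. At 8 weeks Acvrl1, Esam, Icam2, Emcn and Icam1 lost their calls without air replicate 3, at differences of -0.22 to -0.17, and Exoc3l1 without air replicate 4 (-0.46). At 1 week the call of Nostrin was lost without air replicate 3 or 4 (-0.29 and -0.27) and that of Emcn without any one of 5 rats (-0.25 to -0.23). Among the differences at 16 weeks, calls of Cdh5 and Plvap alone were lost in this way. The count at 16 weeks stayed between 18 and 21 and that in the mean over weeks between 26 and 28, whichever rat was left out. With the signals scaled to a common median in place of quantile normalisation, the counts were 0, 9, 3, 2 and 17 at the 5 weeks in their order, and 26 again in the mean over weeks.

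Arrays lay in 8 runs of the deposited order, 4 of them with air and silica lungs and 4 with silica lungs alone. Within the 4 runs that held both, the median of the members' differences over the 5 weeks was -0.18, -0.16, -0.21 and -0.12, with 32, 29, 33 and 28 of the 35 genes negative. With the run as a block 24 members were called in the mean over weeks. At 1 week the block gave 6 called members in place of 3. Over all genes tested it gave 4563 calls in the mean over weeks and 768 at 1 week, against 4891 and 532 without it. Deviations from the group means correlated at a mean of 0.196 between lungs of the same run and -0.031 between lungs of different runs, and the main comparison holds no term for the run.

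Among genes of endothelial cells in general, 20 were tested. At 16 weeks 12 of them were lower, with a median of -0.37, where 12.2% of all genes were lower. Tie1 and Tek encode the receptor kinases through which angiopoietins steady the vessel wall. Tie1 levels at 16 weeks were 9.61, 9.54, 9.81 and 9.93 in the air lungs and lay between 9.22 and 9.46 in the silica lungs, with a median of 9.36. Every silica lung was below every air lung, and the difference was -0.36 ± 0.06 (SE, adjusted p = 2.82e-05). Tie1 was one of 4 members called lower in 4 of the 5 weeks, the others being Emcn, Aplnr and Vwf. Its values were -0.29 at 1 week, -0.22 at 4 weeks and -0.37 at 8 weeks, and -0.10 at 2 weeks, which was not called. The call at 1 week was lost without air replicate 4 (-0.22), and that at 4 weeks without any one of air replicates 3 and 4 and silica replicate 3 (-0.20 to -0.21).

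Ramp2 and Calcrl together form the receptor for adrenomedullin, a peptide that widens vessels and tightens their wall. Ramp2 at 16 weeks measured 13.10, 13.21, 13.30 and 13.51 in air lungs and 12.64 to 12.92, with a median of 12.82, in silica lungs. The ranges did not overlap, and the difference was -0.47 ± 0.07 (adjusted p = 4.19e-07). Ramp2 was also lower at 2 weeks (-0.25) and at 8 weeks (-0.28). Its partner Calcrl was the one member called higher in any week, at 2 weeks, by 0.46 ± 0.15 (adjusted p = 0.0439). The air levels of Calcrl that week were 7.62, 7.81, 6.40 and 6.65, and silica lungs ran from 7.40 to 7.86 with a median of 7.55. The air lungs were thus split, with 2 within the silica range and 2 far below it, and without air replicate 3 the difference was 0.22 and no longer called.

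Acvrl1, a receptor kinase that is mutated in a human disease of malformed vessels, measured 12.61, 12.76, 12.98 and 12.89 in air lungs at 16 weeks. In silica lungs it ran from 12.10 to 12.51 with a median of 12.36, below all air lungs, and the difference was -0.48 ± 0.07 (adjusted p = 1.08e-06). It was called at 2 weeks (-0.23) and 8 weeks (-0.27) as well. The call of Acvrl1 at 2 weeks ended with the run as a block (-0.21, adjusted p = 0.0505), with cyclic loess (-0.19), with array weights (-0.23) and without any one of 8 rats (-0.25 to -0.20). That at 8 weeks ended without air replicate 3 or 4 (-0.22 and -0.24). Bmpr2, the type II receptor that works with it and is mutated in heritable pulmonary hypertension, was called in no single week. Its 5 weekly values lay between -0.20 and -0.14, and in the mean over weeks it was lower, by -0.17 ± 0.05 (adjusted p = 0.00476). With the run as a block the mean of Bmpr2 was -0.12 and not called.

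Several members hold neighbouring endothelial cells together. Cldn5, the tight-junction claudin of vessels, measured 13.15, 13.12, 13.15 and 13.34 in air lungs at 16 weeks and 12.57 to 13.02 in silica lungs, with a median of 12.73. No silica lung reached the air range, and the difference was -0.43 ± 0.08 (adjusted p = 5.96e-05). Esam, an immunoglobulin-type junction protein, measured 11.35, 11.35, 11.51 and 11.42 in air lungs and 10.90 to 11.19 in silica lungs, with a median of 11.03 (-0.36 ± 0.07, adjusted p = 3.04e-05). Icam2, an adhesion molecule that resting endothelium carries, measured 12.01, 11.99, 12.24 and 12.21 in air lungs and 11.59 to 11.83 in silica lungs, with a median of 11.72. Its ranges were apart too, and its difference was -0.40 ± 0.06 (adjusted p = 1.01e-06). Cdh5, the cadherin of endothelial junctions, was lower at 16 weeks, at -0.38 ± 0.12 (adjusted p = 0.0184), a call that ended without air replicate 3 (-0.33) and with heart muscle genes as a covariate (-0.31).

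Nostrin binds the endothelial nitric oxide synthase and directs its traffic inside the cell. Its level at 16 weeks was 10.29, 10.25, 10.49 and 10.35 in air lungs and 9.77 to 10.05 in silica lungs, with a median of 9.92 and no overlap. The difference was -0.43 ± 0.09 (adjusted p = 0.000127), after -0.32 at 1 week and -0.28 at 2 weeks, both called. Thbd, the thrombin receptor that starts the protein C pathway, was lower at 16 weeks by -0.39 ± 0.08 (adjusted p = 0.000196). Mmrn2, a matrix protein of the vessel wall, was lower at 16 weeks by -0.38 ± 0.08 (adjusted p = 0.000489).

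Egfl7, a protein that endothelial cells secrete into the matrix around growing vessels, differed from most members in the week of its lowest p. At 4 weeks its levels were 10.07, 9.79, 10.22 and 10.36 in air lungs and 9.47 to 9.86 in silica lungs, with a median of 9.59. Of the 8 silica lungs, 7 were below all air lungs, and the difference was -0.49 ± 0.10 (adjusted p = 0.00156). Egfl7 was also lower at 2 weeks, at -0.39, and its values of -0.30 at 8 weeks and -0.26 at 16 weeks were not called. Whether its difference varied among weeks was tested and not called (adjusted p = 0.817).

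Among transcription factors, Sox18, which takes part in the making of lymphatic and blood vessels, measured 9.34, 9.35, 9.80 and 9.81 in air lungs at 16 weeks. It lay between 8.52 and 9.28 in silica lungs, with a median of 9.05, all below the air lungs. The difference of -0.61 ± 0.12 (adjusted p = 0.000128) was the most negative of any member at that week. Klf2, a factor that flowing blood induces in endothelium, was called at 8 weeks (-0.58 ± 0.17, adjusted p = 0.0226) and in the mean over weeks (-0.26 ± 0.08, adjusted p = 0.00542). Its value of -0.46 at 4 weeks was not called, and neither was a difference of Klf2 among weeks (adjusted p = 0.504). At 8 weeks air replicate 2, at 11.50, stood above the other air lungs at 10.77 to 10.84. Without it the difference of Klf2 at 8 weeks was -0.41 and not called. Erg, an Ets factor of endothelial identity, was dim, with values of -0.17 to -0.03 and no call, and Flt1, a receptor of vascular endothelial growth factor, ran from -0.20 to -0.01 with no call. Ptprb, a phosphatase of endothelial receptors, was called in no single week and was lower in the mean over weeks, at -0.19 ± 0.04 (adjusted p = 9.81e-05).

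All 6 capillary genes tested were lower in the mean over weeks, where 20.6% of all genes were. At 16 weeks 5 of the 6 were lower, with a median of -0.38, where 12.2% of all genes were lower. Aplnr, the receptor of the peptide apelin, had the most negative mean of the 35 members, at -0.36 ± 0.04 (adjusted p = 1.88e-11). Its levels at 16 weeks were 11.40, 11.55, 11.65 and 11.81 in air lungs and 10.98 to 11.23 in silica lungs, with a median of 11.09. The ranges were apart and the difference was -0.51 ± 0.08 (adjusted p = 4.66e-06). From the first week on, its 5 weekly values were -0.26, -0.30, -0.31, -0.43 and -0.51, with calls in the last 4 of these weeks.

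Car4 encodes a carbonic anhydrase anchored on the blood side of lung capillaries, where it speeds the release of carbon dioxide. At 16 weeks it measured 11.42, 11.45, 11.58 and 11.81 in air lungs and 10.84 to 11.30 in silica lungs, with a median of 11.03. Every silica lung was below every air lung, and the difference of -0.53 ± 0.09 (adjusted p = 4.97e-06) corresponds to a level 30.8% lower. Car4 was lower at 8 weeks too, at -0.38 ± 0.09, and its values of -0.27, -0.24 and -0.18 at the earlier weeks were not called.

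Ednrb, the endothelin receptor that clears endothelin from blood and relaxes vessels through nitric oxide, had its single weekly call at 16 weeks. At 16 weeks the air lungs measured 12.48, 12.54, 12.39 and 12.34, and the silica lungs 11.84 to 12.14 with a median of 12.02. No lungs of the 2 groups overlapped, and the difference was -0.43 ± 0.06 (adjusted p = 1.64e-07). At 2 and 4 weeks it was -0.02 and 0.01, and the values of -0.17 at 1 week and -0.18 at 8 weeks were not called. At 1 week the silica lungs of Ednrb, at 12.07 to 12.27, also lay below all air lungs, though the lowest air lung was 12.27 as well after rounding.

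Emcn encodes endomucin, a heavily glycosylated surface protein of capillaries and veins. It measured 12.19, 12.08, 12.03 and 12.01 in air lungs at 16 weeks and 11.56 to 12.01 in silica lungs, with a median of 11.69. The highest silica lung came within rounding of the lowest air lung, and the difference was -0.33 ± 0.07 (adjusted p = 0.000416). Emcn was also lower at 1 week (-0.25), 4 weeks (-0.24) and 8 weeks (-0.25). It was the single member called in the trend with time in air lungs, at -0.08 per doubling of weeks (adjusted p = 0.00827). That is 2.86% of the members tested, close to the 1.96% of all genes called in that trend. With median scaling this call of Emcn was lost (-0.09, adjusted p = 0.15).

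Gpihbp1, which carries lipoprotein lipase to the capillary surface, was called at 2 and 4 weeks and in the mean over weeks. At 2 weeks air lungs measured 9.46, 8.89, 9.92 and 9.61, and silica lungs 8.33 to 9.17 with a median of 8.91. The lowest air lung lay within the silica range, and the difference was -0.63 ± 0.15 (adjusted p = 0.0055). Gpihbp1 was called at 4 weeks as well, at -0.50, and its values of -0.25 at 8 weeks and -0.27 at 16 weeks were not called. Without air replicate 3 the call at 2 weeks was lost (-0.47), and the call at 4 weeks ended without any one of air replicates 1, 3 and 4 and silica replicates 3, 5, 6 and 7 (-0.51 to -0.38). With heart muscle genes as a covariate Gpihbp1 was -0.31 at 4 weeks (adjusted p = 0.19), and with the replicate block it was -0.38 (adjusted p = 0.128), neither of them called. Its difference was not called as varying among weeks (adjusted p = 0.476). Plvap, the protein of the diaphragms that span endothelial pores, was lower at 16 weeks by -0.21 ± 0.06 (adjusted p = 0.00554), with levels of 14.09, 14.29, 14.39 and 14.41 in air lungs. The silica lungs ran from 13.98 to 14.17 with a median of 14.12, so that Plvap overlapped between groups, and its call ended without air replicate 4 (-0.17).

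**Figure D2:**
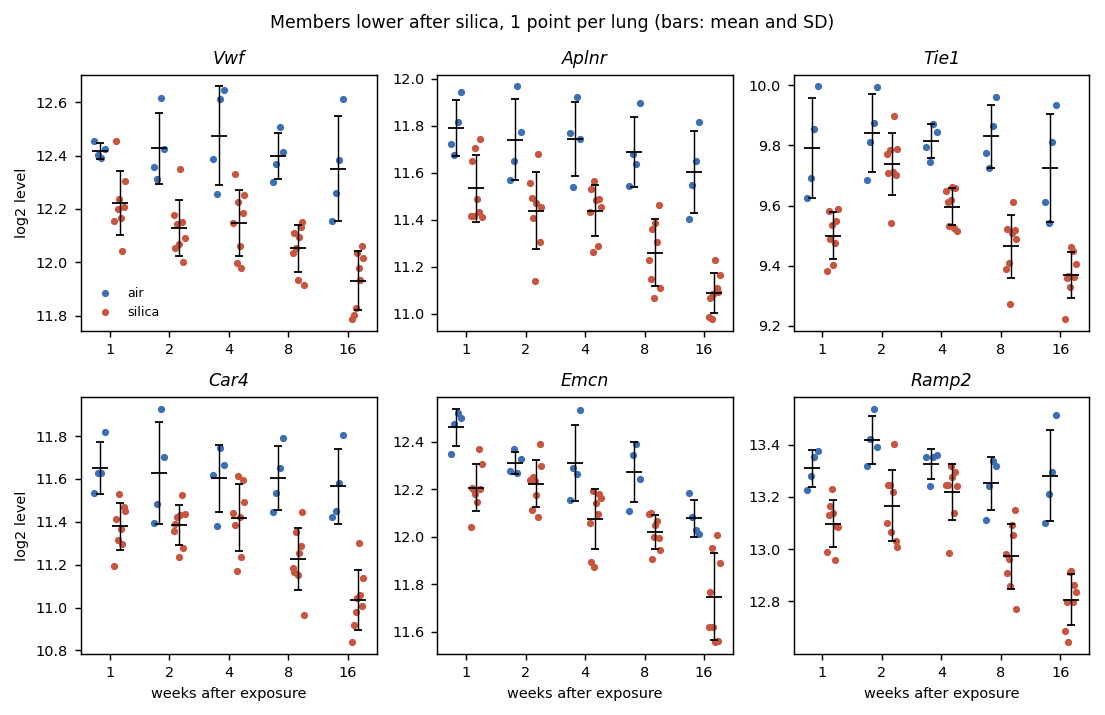
Normalised log2 level (vertical axis) of 6 members in each lung by week after exposure (horizontal axis), with air lungs in blue, silica lungs in red, and black bars for the mean and SD of 4 air or 8 silica lungs. At 16 weeks all 8 silica lungs lie below the lowest air lung in each of the 6 genes.

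Promoter sequences are shown for 3 members with called differences, Tie1 and Emcn with and Car4 without a match to the letters AGGAAG, a common core of Ets-factor sites. They come from RefSeq's rat annotation of build GRCr8, from 250 bases before to 50 bases after the gene's start, 5′ to 3′ on the gene's strand, and a promoter was matched for 23 of the 42 members. Capitals mark AGGAAG or its reverse complement. The Tie1 promoter lies on the minus strand of chromosome 5 from 137304932 to 137305231, the Emcn promoter on the plus strand of chromosome 2 from 228564289 to 228564588, and the Car4 promoter on the plus strand of chromosome 10 from 70325108 to 70325407.
Tie1: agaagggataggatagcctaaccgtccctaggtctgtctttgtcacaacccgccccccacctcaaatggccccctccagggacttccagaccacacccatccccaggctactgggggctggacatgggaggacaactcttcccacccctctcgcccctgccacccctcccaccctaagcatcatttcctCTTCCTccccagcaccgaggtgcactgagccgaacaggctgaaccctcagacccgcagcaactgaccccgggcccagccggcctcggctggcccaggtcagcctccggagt
Emcn: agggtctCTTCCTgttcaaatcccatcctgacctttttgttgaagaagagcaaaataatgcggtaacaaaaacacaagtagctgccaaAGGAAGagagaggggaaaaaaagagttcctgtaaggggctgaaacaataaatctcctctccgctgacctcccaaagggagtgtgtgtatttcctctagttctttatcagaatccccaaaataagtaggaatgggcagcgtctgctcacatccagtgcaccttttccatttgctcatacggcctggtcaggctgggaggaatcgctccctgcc
Car4: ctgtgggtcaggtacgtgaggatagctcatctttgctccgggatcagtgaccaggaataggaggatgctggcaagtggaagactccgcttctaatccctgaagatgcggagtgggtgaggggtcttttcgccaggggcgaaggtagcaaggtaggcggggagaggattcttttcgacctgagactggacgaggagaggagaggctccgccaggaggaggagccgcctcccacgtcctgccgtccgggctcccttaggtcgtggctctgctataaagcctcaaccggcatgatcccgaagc

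AGGAAG was searched on both strands, and overlaps with other strings were allowed. It was found in 15 of the 24 promoter windows of members (62.5%) and in 34.5% of all 33469 windows. Of the 23 members with a promoter, 11 were called in the mean over weeks. AGGAAG was also found in members not called there, such as Erg and Flt1, and not tested, such as Robo4 and Eng. Whether a match goes with the silica difference was not tested. The match begins 61 bases before the start in Tie1, and 243 and 162 bases before it in Emcn. The related letters CGGAAG were found in 4.17% of the members' windows and 16.6% of all windows. CCACCC, a string that Klf factors bind, was found in 50% of the members' windows and 29.4% of all windows. These strings were chosen after others had been looked at, and a match in letters does not show that a factor binds there.

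The 4 large-vessel genes did not move as 1 group. Vwf, the clotting protein that endothelial cells store and release and that platelets also hold, was lower in 4 weeks and in the mean over weeks (-0.32 ± 0.03, adjusted p = 1.82e-11). Its levels at 16 weeks were 12.15, 12.26, 12.38 and 12.61 in air lungs and 11.79 to 12.06 in silica lungs, with a median of 11.96. The ranges were apart, and the difference was -0.42 ± 0.07 (adjusted p = 1.58e-05). The weekly values before that were -0.20, -0.30, -0.33 and -0.34, of which the first was not called. The 4 platelet genes tested had a median of -0.48 at 16 weeks, with 3 lower and 1 higher. Of all genes tested, 12.2% were lower and 10.5% higher in that week. The part of platelets in the Vwf result was not tested.

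Sox17, a transcription factor of arteries, was called at 2 weeks and in the mean over weeks (-0.11 ± 0.04, adjusted p = 0.0151), and its difference was not called as varying among weeks (adjusted p = 0.317). Its air lungs measured 10.67, 10.35, 10.40 and 10.41 at 2 weeks and its silica lungs 9.99 to 10.38 with a median of 10.15. The groups overlapped in 1 silica lung, and the difference was -0.30 ± 0.08 (adjusted p = 0.0154), a call that ended without air replicate 1 (-0.23). Procr, the receptor that presents protein C to thrombin and thrombomodulin, was called at 2 weeks. Its air lungs measured 7.87, 8.33, 8.22 and 8.24 and its silica lungs 7.61 to 7.97 with a median of 7.71, with a difference of -0.40 ± 0.09 (adjusted p = 0.00262). In the other weeks the values of Procr were 0.20, 0.08, -0.01 and 0.02, none of them called. Edn1, which encodes the vasoconstrictor endothelin, was called in no week. At 16 weeks Edn1 measured 9.01, 9.15, 8.87 and 9.20 in air lungs and 8.92 to 9.75, with a median of 9.23, in silica lungs, and the difference of 0.24 ± 0.13 was within the spread (adjusted p = 0.192).

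Of the lymphatic genes Lyve1, a hyaluronan receptor of lymphatic endothelium that some tissue macrophages also carry, was the single one tested. At 16 weeks it measured 11.40, 11.67, 11.69 and 11.73 in air lungs and 11.10 to 11.50 in silica lungs, with a median of 11.26. One silica lung reached into the air range, and the difference was -0.36 ± 0.08 (adjusted p = 0.000845). No earlier week was called, with values between -0.21 and -0.06. Since Prox1 was not detected and Flt4 had no row, no second lymphatic gene stands beside Lyve1.

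None of the 4 adhesion molecules for leukocytes was called higher in any week. Icam1, which binds leukocyte integrins and is also carried by alveolar type I cells, was lower at 2, 4 and 8 weeks. At 4 weeks its levels were 12.22, 11.95, 12.28 and 12.28 in air lungs and 11.78 to 12.14, with a median of 11.99, in silica lungs. The groups overlapped, and the difference was -0.19 ± 0.06 (adjusted p = 0.0322), close to the -0.18 and -0.17 of 2 and 8 weeks. The 3 calls of Icam1 were lost without any one of 7, 4 and 9 single rats, at values between -0.18 and -0.14. Its mean over weeks was -0.13 ± 0.03 (adjusted p = 4.8e-05).

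Vcam1, the ligand of the integrin that monocytes and lymphocytes use, gave 0.09, 0.23, 0.20, 0.11 and -0.18 over the 5 weeks, with no call. At 2 weeks its levels were 10.67, 10.46, 9.96 and 10.34 in air lungs and 10.32 to 10.75 in silica lungs, with a median of 10.61, so that the groups overlapped (adjusted p = 0.104). E-selectin, encoded by Sele, was near the detection limit. It measured 5.24, 5.26, 5.04 and 5.31 in air lungs at 16 weeks and 4.98 to 5.62 in silica lungs, with a median of 5.43, and its difference of 0.17 ± 0.08 was not called (adjusted p = 0.138). P-selectin, encoded by Selp and held in the same granules as Vwf, had its largest difference at 4 weeks, at -0.43 ± 0.15 (adjusted p = 0.0593). Its air lungs measured 7.02, 7.05, 7.15 and 6.79 and its silica lungs 6.30 to 6.97 with a median of 6.52. At 1 and 16 weeks Selp gave 0.27 and 0.20, neither of them called.

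**Figure D3:**
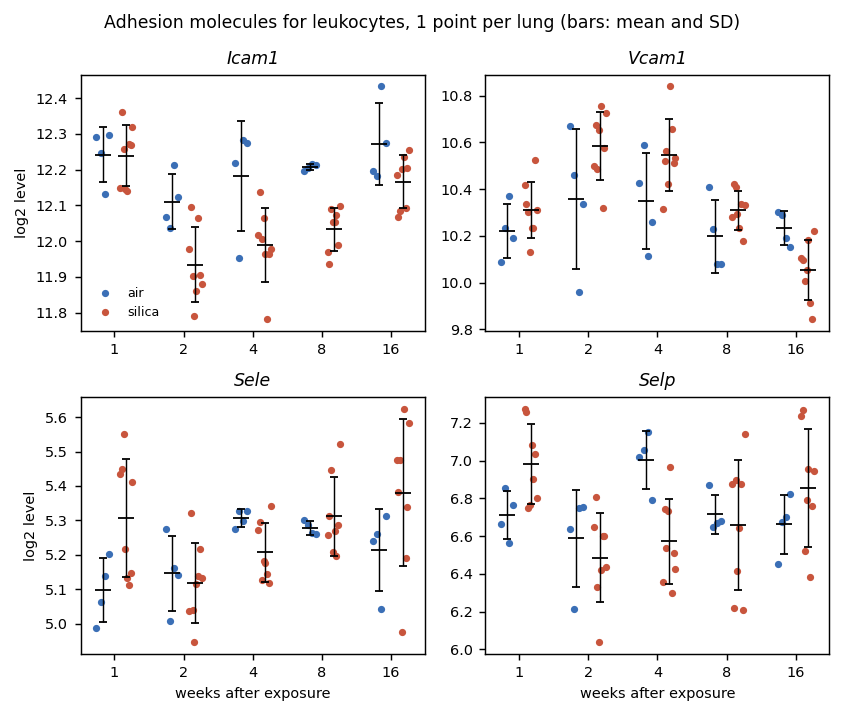
Normalised log2 level (vertical axis) of the 4 adhesion molecules for leukocytes in each lung by week after exposure (horizontal axis), with air lungs in blue, silica lungs in red, and black bars for the mean and SD of 4 air or 8 silica lungs. Silica and air lungs overlap in most weeks, and Icam1 alone has called differences, of -0.18, -0.19 and -0.17 at 2, 4 and 8 weeks.

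Whether a gene's difference changed among the 5 weeks was asked with limma's F-test, and 4 of the 35 members were called, where 2.1% of all genes tested were. They were Ednrb (adjusted p = 0.00537), Exoc3l1 (adjusted p = 0.00763), Procr (adjusted p = 0.0274) and Tek (adjusted p = 0.0343). Exoc3l1, a relative of an exocyst subunit that is enriched in endothelium, ran from 0.44 ± 0.14 at 1 week through 0.13 and -0.40 to -0.54 ± 0.14 at 8 weeks and -0.26 at 16 weeks. At 8 weeks Exoc3l1 measured 7.25, 7.39, 7.47 and 7.69 in air lungs and 6.56 to 7.18, with a median of 6.94, in silica lungs, with no overlap (adjusted p = 0.00896). At 1 week its air lungs were split, at 6.55, 6.57, 7.26 and 7.50, and the silica lungs at 7.19 to 7.63 overlapped with them (adjusted p = 0.0678).

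Tek was -0.22 at 1 week and 0.08 at 4 weeks, both not called, and -0.45 ± 0.08 at 16 weeks (adjusted p = 1.87e-05). At 16 weeks Tek measured 10.15, 10.34, 10.41 and 10.21 in air lungs and 9.55 to 10.16 in silica lungs, with a median of 9.83 and 1 silica lung inside the air range. The F-test call of Tek was lost without any one of 9 rats, which were air replicates 1, 3 and 4 at 4 weeks and air replicates 2, 3 and 4 and silica replicates 1, 5 and 6 at 16 weeks, and that of Procr without air replicate 2, 3 or 4 at 2 weeks. A trend, the slope of the difference per doubling of weeks, was called for Ednrb (-0.07 ± 0.02, adjusted p = 0.0442) and Exoc3l1 (-0.21 ± 0.05, adjusted p = 0.00664). Of all genes, 1.77% were called in it. The difference of neither gene fell steadily from week to week. The trend call of Ednrb was lost without any one of 24 single rats, with slopes of -0.07 to -0.06. With the run as a block 7 members were called in the trend and 10 in the F-test. Calls over all 13918 genes rose with this block too, from 246 to 629 in the trend and from 292 to 874 in the F-test.

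**Figure D4:**
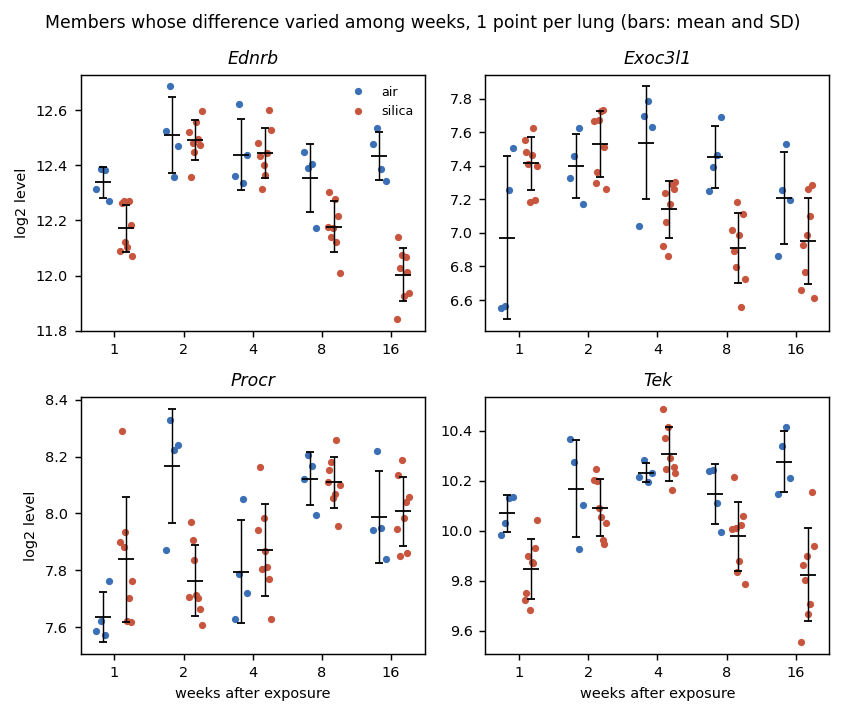
Normalised log2 level (vertical axis) of the 4 members called in the test among weeks, in each lung by week after exposure (horizontal axis), with air lungs in blue, silica lungs in red, and black bars for the mean and SD of 4 air or 8 silica lungs. Ednrb and Tek are set apart mainly at 16 weeks, Procr at 2 weeks, and Exoc3l1 changes from higher means in silica lungs at 1 week to lower ones at 8 weeks.

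Genes that signal to endothelium were taken from a list of 40 ligands, receptors, Notch and bone morphogenetic protein genes and transcription factors, of which 35 were tested. Over the 5 weeks in their order 3, 6, 3, 5 and 13 of the 35 were lower and none was higher, where 1.14%, 4.61%, 3.76%, 4.15% and 12.2% of all genes were called lower. In the mean over weeks 21 were lower, against 20.6% of all genes, and Nrp2, a co-receptor of lymphatic growth factors, was higher (0.12 ± 0.04, adjusted p = 0.0283). Of the 6 with the lowest p, Apln, which encodes the ligand of Aplnr, was lower by -0.31 ± 0.04 (adjusted p = 3.23e-10). Dll4, the Notch ligand of sprouting tip cells and arteries, was lower by -0.38 ± 0.05 (adjusted p = 1.14e-09). Smad6, an inhibitor that signals of the Acvrl1 receptor induce, was lower by -0.31 ± 0.04 (adjusted p = 9.67e-09). Angpt2, a ligand of Tek, gave -0.26 ± 0.04 (adjusted p = 1.35e-07), the factor Ets1 -0.27 ± 0.04 (adjusted p = 1.59e-07) and the factor Klf4 -0.24 ± 0.04 (adjusted p = 1.16e-05). Ligand and receptor genes of the apelin pair were thus lower together, while Vegfa, the main growth factor of endothelium, had a mean of 0.10 ± 0.06 that was not called (adjusted p = 0.193).

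Markers of other lung cells are given for the week with most endothelial calls. Of all genes tested, 12.2% were called lower and 10.5% higher at 16 weeks. At 16 weeks 6 of 10 alveolar type I genes were lower, with a median of -0.26, and the mean log2 level of the list was 11.04 to 11.17 in air lungs and 10.74 to 10.94 in silica lungs. Of 9 genes of pericytes and smooth muscle, 5 were lower, with a median of -0.39 and list means of 7.57 to 7.70 in air lungs and 7.22 to 7.48 in silica lungs. Macrophage genes were higher in 6 of 7, with a median of 0.54 and list means of 8.55 to 8.90 in air lungs and 8.95 to 9.44 in silica lungs. Neutrophil genes were higher in 4 of 5, with a median of 0.74 and list means of 6.65 to 6.72 against 7.19 to 7.93. Of 8 alveolar type II genes 4 were higher, with a median of 0.20. At 1, 2 and 4 weeks 3, 12 and 7 endothelial genes were called lower, with medians of -0.16, -0.13 and -0.17. No pericyte or smooth muscle gene was called in these weeks, but their medians were -0.17, -0.03 and -0.10. Of the type I genes 0, 1 and 0 were called, with medians of -0.11, -0.11 and -0.12. Of all genes tested, 1.14%, 4.61% and 3.76% were called lower in these weeks. At 8 weeks 1 gene of pericytes and smooth muscle and 5 type I genes were lower, where 4.15% of all genes were. The part of these cells in the endothelial result was not tested.

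Heart muscle genes, which the heart and the muscle sleeves of rat pulmonary veins express, differed at 16 weeks. All 4 of them tested were lower there, with a median of -4.02, where 12.2% of all genes were lower. Their mean level was 9.79 to 10.74 in air lungs and 5.41 to 9.52 in silica lungs. At 4 weeks their median was 2.53 with no call. With the mean of these genes as a covariate, 20 endothelial genes were called at 16 weeks and 27 in the mean over weeks, against 19 and 26 without it. Over all genes tested, 2340 and 4883 were called with the covariate, against 3159 and 4891 without it. In the F-test among weeks 1 member was called with this covariate in place of 4. Calls over all genes fell there too, from 292 to 88. The remaining member was Exoc3l1, while Ednrb, Procr and Tek had adjusted p-values of 0.159, 0.071 and 0.132.

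**Figure D5:**
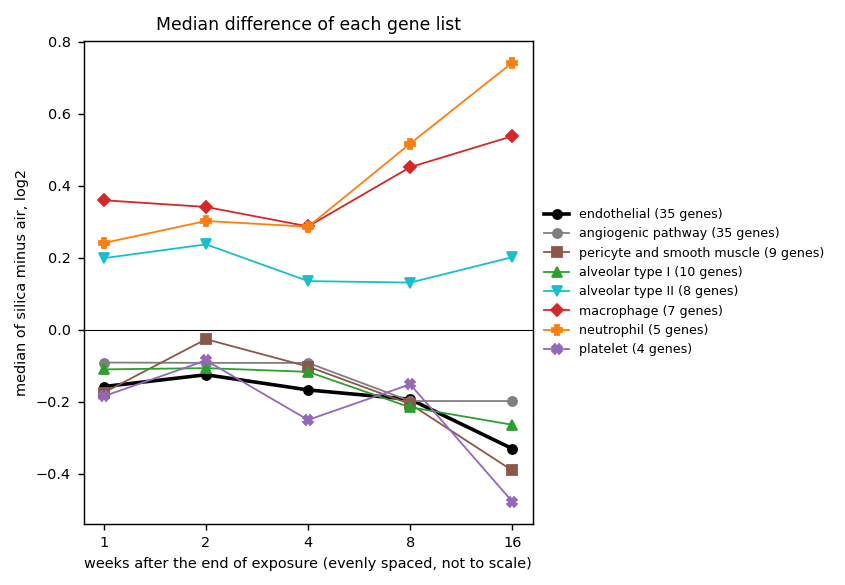
Median of the silica minus air differences (log2, vertical axis) of each gene list at each week after exposure (horizontal axis, evenly spaced), with the number of genes tested in the legend. The endothelial line runs from -0.16 at 1 week to -0.33 at 16 weeks, below 0 like the pericyte and smooth muscle and alveolar type I lines, while macrophage, neutrophil and alveolar type II lines lie above 0.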

How the data were processed

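The deposited table gives a signal and a detection p-value for each row on 60 arrays, and some genes have several rows. The signal is a mean bead intensity that the authors deposited without normalization, per the file headers, and the detection p-value was deposited beside it. A second table holds the authors' processed values read here as log2, since they rise by 0.872 per unit of log2 signal and no header states a scale, and was tried in place of the signals. The tools named by the submitters' processing notes are limma, lumi and BeadStudio, whose versions are not given in the sources used here. Of 21794 lines 2 were blank. In 1 array, silica at 4 weeks, replicate 3, the signals were displaced by 2 lines from line 17 on and were moved back, which raised the correlation with the median array from 0.232 to 0.998.

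Background was corrected by normexp (offset 16), with the negative controls' mean and SD worked out from the deposited p-values, which imply 825 controls, followed by quantile normalization and log2. Rows detected at p under 0.05 on at least 4 lungs were kept, the brightest per gene. Rows were named through RefSeq's rat gene table (assembly GRCr8). Differences were tested with limma 3.58.1 (lmFit and eBayes, run in R 4.3.3), in 1 fit of 60 lungs with 10 group means and 50 residual degrees of freedom, and Benjamini-Hochberg adjustment over 13918 genes. The fit was tested on simulated data. The mean over weeks weights the 5 weeks equally, and the trend is the slope per doubling of weeks. The labels call the rats separate animals, and the p-values measure the spread between them. Tables and plots were made with pandas 2.3.3, matplotlib 3.10.9 and numpy 2.4.6 under python 3.11.15. The labels gave each rat's group and replicate number.

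Per-lung values are given for the 14 called members with the lowest p of the mean over weeks, at the week of their lowest adjusted p, and every capillary, large-vessel, lymphatic and adhesion gene is named. From the list of 40 pathway genes the 6 with the lowest p are named, and Nrp2 and Vegfa were added after their values were seen. Cav1 stands in the pathway and the type I list. The members and lists were chosen with earlier results of these data known. Counts of list members called have no test of their own.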

Additional observations from a re-analysis of the deposited data

Results flagged for a closer look

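Of 28 groups of values tested for a lung that stood apart, 1 had one. In the air lungs at 16 weeks Cldn5 measured 13.34 in replicate 4, above 13.12 to 13.15 in the other 3 lungs, and the gap to the nearest lung was 0.864 of the group's range. Chance alone gives such a gap in about 1 in 20 groups. The difference of Cldn5 at 16 weeks remained called without this lung.

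The difference between silica and air lungs varied among weeks in 4 members by limma's F-test. Ednrb had an adjusted p of 0.00537 and was lower at 16 weeks. Exoc3l1 had an adjusted p of 0.00763 and went from 0.44 at 1 week to -0.54 at 8 weeks. Procr had an adjusted p of 0.0274, and 2 weeks was its one single week with a call. Tek had an adjusted p of 0.0343, and 16 weeks was its one single week with a call.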

How the results depend on the processing

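No called difference of a member changed its sign under the 15 other settings or without any of the 60 rats, and 46 of 87 calls of members remained under all of these but the stricter threshold. The counts of called members were 3, 13, 7, 12 and 19 in the 5 weeks in their order and 26 in the mean over weeks, with 2 in the trend, 1 in the air trend and 4 in the test among weeks. Median scaling gave 0 at 1 week, 3 at 4 weeks, 2 at 8 weeks, 1 in the trend, 0 in the air trend and 1 in the test among weeks. The authors' values gave 6 at 1 week, 11 at 4 weeks, 1 in the trend and 2 in the air trend, and array weights gave 5 at 1 week and 7 at 2 weeks. Each week fitted alone, with fewer lungs in the fit, gave 4, 3 and 7 at 2, 4 and 8 weeks. An adjusted p under 0.01 gave 1, 5, 2 and 6 at 1, 2, 4 and 8 weeks, 1 in the trend and 2 in the test among weeks. Cyclic loess and no detection filter each gave 1 in the trend. A stricter threshold can only lower a count, and the cause of the other moves, those of the weeks fitted alone included, was not tested.

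Leaving out 1 rat gave 1 to 7 calls at 1 week, 3 to 13 at 2 weeks, 1 to 9 at 4 weeks, 7 to 13 at 8 weeks, 18 to 21 at 16 weeks, 26 to 28 in the mean over weeks, 1 to 3 in the trend, 1 in the air trend and 3 to 5 in the test among weeks. The replicate block gave 7 calls at 1 week and 25 in the mean over weeks, where the call of Sox17 was lost (-0.06). Lungs with the same replicate number had a mean correlation of 0.065, with a lowest of -0.44, so the numbers were not taken to pair the rats. Lungs of the same run had a mean correlation of 0.196, against -0.031 for lungs of different runs. No header names a slide, and the planned block by slide was replaced, after seeing the data, by the run of the deposited order. The run gave 6 calls at 1 week, 7 in the trend, 2 in the air trend and 10 in the test among weeks. Over all genes it gave 768, 629, 536 and 874 calls in these comparisons, where the main fit gave 532, 246, 273 and 292. The heart muscle covariate, also added after seeing the data, gave 1 in the trend and 1 in the test among weeks. Over all genes this covariate gave 160 and 88 calls there. With the run as a block the mean over weeks of Sox17 was lost too (-0.07). Signals near background limit Erg and Sele.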
